A study of Mus musculus with 10 samples.

Results

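The genes described here are the receptor chains of the interleukin-12 (IL-12) cytokine family and the transcription factor STAT4 behind them: Il12rb1, Il12rb2, Il23r, Il27ra, Il6st and Stat4. They were chosen by name because Il12rb1 was already known to be higher in 1 group of these samples, and its partner chains were set beside it to ask whether a complete receptor was measured. Every probe set that the platform annotation assigns to these symbols was taken, which gave 8 of 45101 probe sets and 5 of 18193 genes. Il12rb1, Il12rb2, Il27ra and Stat4 had 1 probe set each and Il6st had 4. Il23r matched 0 probe sets and was not analysed here.

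The samples were mouse acute lymphoblastic leukaemia cells of C57BL/6 background that carried the human p210 bcr/abl fusion gene and a deletion in the Ink4a/Arf locus. The cells grew in C57BL/6 recipients that had received total body irradiation and 5-fluorouracil. In the syngeneic group (5 animals) the leukaemia was infused with C57BL/6 marrow and spleen cells, and in the allogeneic group (5 animals) with C3.SW marrow and spleen cells. In both groups it was recovered by flow cytometry after 2 to 3 weeks and passed on, and RNA was taken after 3 serial transplants. The final cells were sorted from bone marrow on green fluorescent protein, and each animal gave 1 Affymetrix array. All animals carried the same named leukaemia, so every value describes 1 leukaemia model. The sources do not state animal age or whether animals of a group shared an earlier recipient, so p-values cover only the spread between these 10 animals, which need not be independent.

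As background, these receptors work in pairs of chains. The chain encoded by Il12rb1 binds the p40 subunit shared by IL-12 and IL-23, and it pairs with the Il12rb2 product to form the IL-12 receptor or with the Il23r product to form the IL-23 receptor. The IL-27 receptor joins the Il27ra product to gp130, the product of Il6st, which also serves IL-6 and related cytokines, and IL-35 has been reported to use the Il12rb2 product with gp130. The Il12rb1 chain has little signalling capacity of its own, while the Il12rb2 chain recruits STAT4 through the kinase JAK2. In lymphoid tissue the IL-12 receptor is best known from T cells and NK cells, where STAT4 drives interferon-gamma production, and the transcription factor IRF1 is known to activate Il12rb1 in T cells.

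Leukaemia identity and array quality were examined first. Of 9 measured B-lymphoid progenitor markers, 8 exceeded background on all 10 arrays, led by the pre-B receptor genes Vpreb1 and Igll1 and by Cd79b. The labelled cell type was borne by these 8. The other, Pax5, exceeded background on 4 of 5 syngeneic and 2 of 5 allogeneic arrays. Its log2 difference was -1.21 (SE 0.52, adjusted p = 0.281 by limma). A background limit was set on each array from probe sets for bacterial transcripts and lay between 4.50 and 5.32 on the log2 scale. Between 11224 and 13094 genes per array exceeded it. Allogeneic animals 1, 3 and 4 had arrays with a raised low end, a lower quartile of deposited intensity of 18.7 to 19.5 against 13.8 to 14.4 elsewhere.

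Il12rb1 was measured in every animal and stood higher in all allogeneic animals than in any syngeneic one. In syngeneic animals 1 to 5 its probe set (1418166_at) had quantile-normalized log2 intensities of 8.04, 7.64, 8.26, 8.15 and 7.89. In allogeneic animals 1 to 5 it had 10.33, 10.20, 10.28, 9.75 and 9.95. The lowest allogeneic value, in animal 4, was above the highest syngeneic value, in animal 3, and the groups did not overlap. On the deposited linear scale the mean intensity was 262 ± 43.4 (SD, n = 5) for syngeneic and 1108 ± 168 (SD, n = 5) for allogeneic animals. The log2 difference was 2.10 (SE 0.16), or 4.30-fold. Because this rise is what chose the gene, it is a description and carries no test. The difference ran from 2.02 to 2.19 when single animals were left out and was 2.08 without allogeneic animals 1, 3 and 4. In sorted bulk RNA, a change in the number of cells that express a gene and a change in RNA per cell cannot be told apart.

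**Figure D1:**
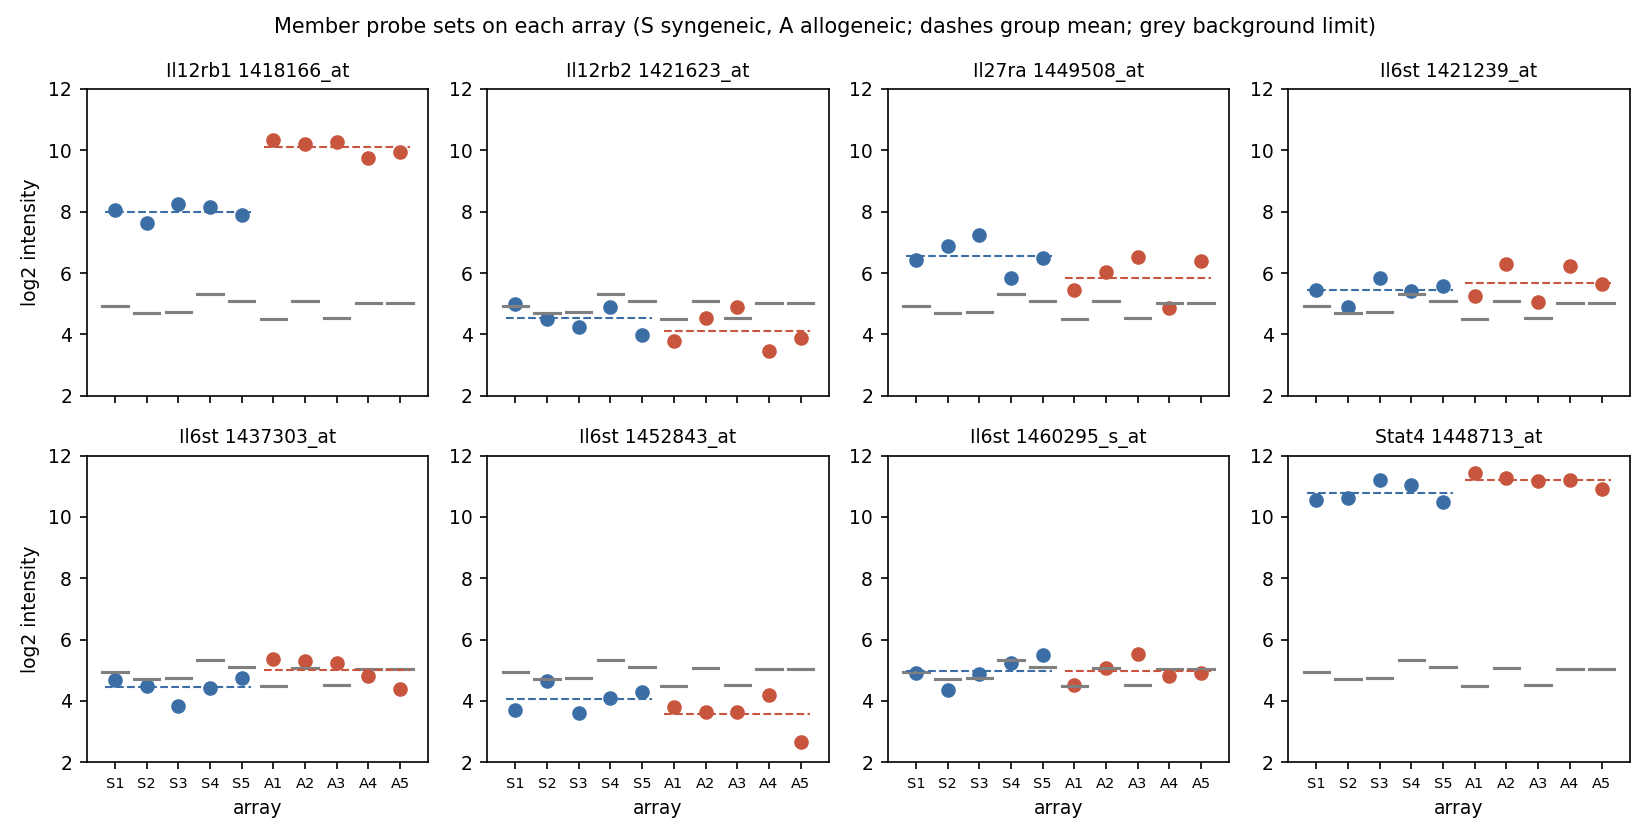
Quantile-normalized log2 intensity (vertical axis) of the 8 member probe sets on each of the 10 arrays (horizontal axis), with group means as dashed lines and each array's background limit as a grey bar. Il12rb1 separates the groups without overlap and Stat4 is far above the limit on all 10 arrays, whereas Il12rb2 and 3 of the 4 Il6st probe sets lie around or below it.

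Il12rb2, which encodes the signalling partner in the IL-12 receptor, was at or near background in both groups. Its log2 intensities were 4.98, 4.52, 4.24, 4.88 and 3.98 in syngeneic animals 1 to 5 and 3.77, 4.53, 4.88, 3.46 and 3.89 in allogeneic animals 1 to 5. It exceeded the limit only in syngeneic animal 1, by 0.046, and in allogeneic animal 3, by 0.35 on the log2 scale. The groups overlapped, and the allogeneic minus syngeneic log2 difference was -0.42 (95% interval -1.08 to 0.25, adjusted p = 0.513 by limma over all 18193 genes). Most of these values lie below the limit, so neither they nor the difference are levels of the transcript. A complete IL-12 receptor pair, with Il12rb1 and Il12rb2 both above the limit, was therefore measured on 1 of 5 syngeneic and 1 of 5 allogeneic arrays. With the limit raised to the highest bacterial probe set of each array the counts were again 1 and 1. With the limit at the median plus 3 scaled MAD of the bacterial probe sets they were 0 and 0.

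Il27ra, which encodes the ligand-specific chain of the IL-27 receptor, was above the limit in most animals. Syngeneic animals 1 to 5 had log2 intensities of 6.41, 6.88, 7.24, 5.84 and 6.48. Allogeneic animals 1 to 5 had 5.45, 6.02, 6.53, 4.87 and 6.38. Allogeneic animal 4 was the lowest and the only 1 of the 10 below its array's limit, and the groups overlapped. The log2 difference was -0.72 (95% interval -1.51 to 0.076, adjusted p = 0.340 by limma), which did not pass the test. Without allogeneic animals 1, 3 and 4 the difference was -0.37 (adjusted p = 0.566 by limma). Its sign was opposite to that of Il12rb1, and the interval leaves room for a fall of over 1 on the log2 scale.

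Il6st, which encodes gp130, gave a weak signal that differed between its 4 probe sets. The probe set of highest mean (1421239_at) stood at 5.45, 4.89, 5.85, 5.41 and 5.57 in syngeneic animals 1 to 5 and at 5.25, 6.29, 5.04, 6.22 and 5.65 in allogeneic animals 1 to 5. It exceeded the limit on all 10 arrays, by 0.088 to 1.20 on the log2 scale, and the groups overlapped. Its log2 difference was 0.26 (95% interval -0.36 to 0.88, adjusted p = 0.674 by limma), against 0.54 without allogeneic animals 1, 3 and 4 (adjusted p = 0.281) and 0.083 for the mean of the 4 probe sets (adjusted p = 0.843). Probe set 1437303_at exceeded the limit on 0 of 5 syngeneic and 3 of 5 allogeneic arrays, those of animals 1, 2 and 3, so no fold is given. Its log2 difference was 0.58 (adjusted p = 0.261 by limma over 45037 probe sets). Probe set 1452843_at exceeded the limit on 0 arrays, and 1460295_s_at did so on 2 of 5 in each group, where the adjusted p was 0.440 and 0.982. None of the 4 probe sets passed, where 0.411% of all probe sets did, and their differences did not share a sign.

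An IL-27 receptor pair, with Il27ra and the brightest Il6st probe set both above the limit, was measured on all 5 syngeneic arrays and on 4 of 5 allogeneic arrays. The missing array was that of allogeneic animal 4. At the limit of the highest bacterial probe set the counts were 3 and 4, because Il6st no longer passed on all arrays. At a limit of the median plus 3 scaled MAD of the bacterial probe sets, which lies above all of them, they were 0 and 0. The IL-35 pair, Il12rb2 with Il6st, was measured on 1 of 5 arrays in each group. An IL-23 pair could not be examined without Il23r. These counts rest on transcripts near background and say nothing of receptor protein at the cell surface.

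**Figure D2:**
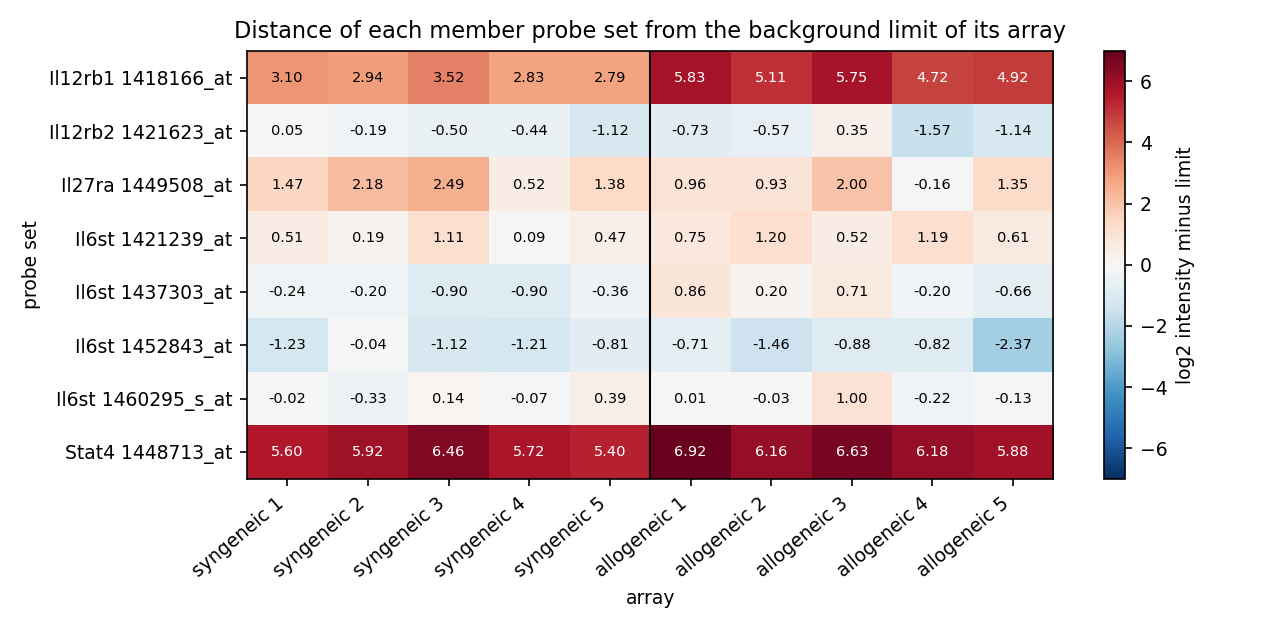
Log2 intensity minus the background limit of the same array (colour and printed number) for each of the 8 member probe sets (rows) on each of the 10 arrays (columns, syngeneic left of the line). Il12rb1 and Stat4 are positive on every array, Il12rb2 is positive in syngeneic animal 1 and allogeneic animal 3, and Il27ra is negative in allogeneic animal 4.

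Stat4, the transcription factor through which the IL-12 receptor signals, was well above background in every animal. Its log2 intensities were 10.54, 10.62, 11.20, 11.04 and 10.50 in syngeneic animals 1 to 5 and 11.42, 11.25, 11.16, 11.20 and 10.92 in allogeneic animals 1 to 5. Syngeneic animals 3 and 4 lay within the allogeneic range and the other 3 below it, so the groups overlapped. The log2 difference was 0.41 (95% interval 0.035 to 0.79), with an adjusted p of 0.258 by limma, so it did not pass over all genes although its own interval excluded 0. Of the 5 measured members, 1 passed the test, Il12rb1 itself, against 0.583% of all genes, and 1 had groups without overlap, against 4.83%. Since that gene was chosen for its rise, nothing is read from these counts. None of the other 4 members passed in any of the 19 alternative fits, 1 of which leaves Il12rb2 out as too low.

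The genes around these receptors were described by role from lists of 66 genes in all, the members included, of which 58 were measured. Without adjustment, 16.9% of all genes had a limma p under 0.05. The count at that level was 2 of the 5 members, Il12rb1 (chosen for its rise) and Stat4, and is given beside each other list. Among the ligand subunits, 0 of 4 measured passed the test (1 unadjusted). Ebi3, the subunit shared by IL-27 and IL-35, exceeded the limit on all 10 arrays, with group means of 6.70 and 7.50 and a log2 difference of 0.80 (SE 0.28, adjusted p = 0.204 by limma). Il12a, the p35 subunit of IL-12, was also above the limit on all 10 arrays, with a difference of 0.18 (adjusted p = 0.646 by limma). Il12b, which encodes p40, the subunit that the Il12rb1 chain binds, exceeded the limit on 0 arrays, and Il23a on 1 syngeneic and 2 allogeneic arrays. Il27 was not analysed here.

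The kinases that these receptors use were all above the limit on all 10 arrays, and 0 of 3 passed the test (1 unadjusted). Jak1 differed by -0.27 (adjusted p = 0.266 by limma) and Tyk2, which associates with the Il12rb1 chain, by 0.22 (adjusted p = 0.431). Stat3, which carries gp130 and IL-23 signals, differed by -0.19 (adjusted p = 0.585 by limma) and was the only measured gene of its list (0 unadjusted). Other chains that pair with gp130 gave 0 of 4 that passed (0 unadjusted). Il6ra differed by 0.50 (adjusted p = 0.507 by limma). Osmr was above the limit on 0 syngeneic arrays and 1 allogeneic array (adjusted p = 0.339), so no fold is given.

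Of the 9 genes that attenuate these signals, 0 passed the test (3 unadjusted), 8 exceeded the limit on all 10 arrays and the median log2 difference was -0.12, against 0.011 over all genes. Socs3, an inhibitor that binds gp130 and is induced by STAT3, had a syngeneic mean of 11.08 and an allogeneic mean of 9.80. Its values ran from 10.59 to 11.75 and from 9.08 to 10.33, without overlap, and its log2 difference was -1.27 (SE 0.29, adjusted p = 0.0893 by limma). It passed under 5 of the 19 alternative fits, with adjusted p-values between 0.0248 and 0.0498. Socs1, an inhibitor of JAK kinases, differed by 0.78 (SE 0.29, adjusted p = 0.226 by limma), with the opposite sign to Socs3. Both genes are also induced by other cytokines.

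Target genes of the 3 cytokines showed no call in the fit of all 10 samples. Of 12 IL-12 and STAT4 target genes 0 passed (1 unadjusted), 4 had a positive difference and the median was -0.14. Map3k8, a kinase of inflammatory signalling, differed by -0.69 (adjusted p = 0.246 by limma) and Gadd45b, a stress-response gene, by -0.82 (adjusted p = 0.306). Without allogeneic animal 1, Map3k8 differed by -0.95 (adjusted p = 0.0192 by limma) and was the 1 gene of that list to pass. Ifng, the main product of IL-12 signalling, was above the limit on 0 arrays, as were Eomes and Gzmb, which are named because their values were low. Of 5 measured IL-23 and Th17 genes 0 passed (3 unadjusted). Il1r1, an IL-1 receptor, exceeded the limit on 0 syngeneic arrays and 1 allogeneic array (adjusted p = 0.149 by limma), so no fold is given. Ahr, a ligand-activated transcription factor, differed by -0.48 (adjusted p = 0.210 by limma). Of 6 measured IL-27 target genes 0 passed (0 unadjusted). Cd274, which encodes the inhibitory ligand PD-L1, differed by 0.58 (adjusted p = 0.435 by limma), and Il10 was above the limit on 0 arrays.

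**Figure D3:**
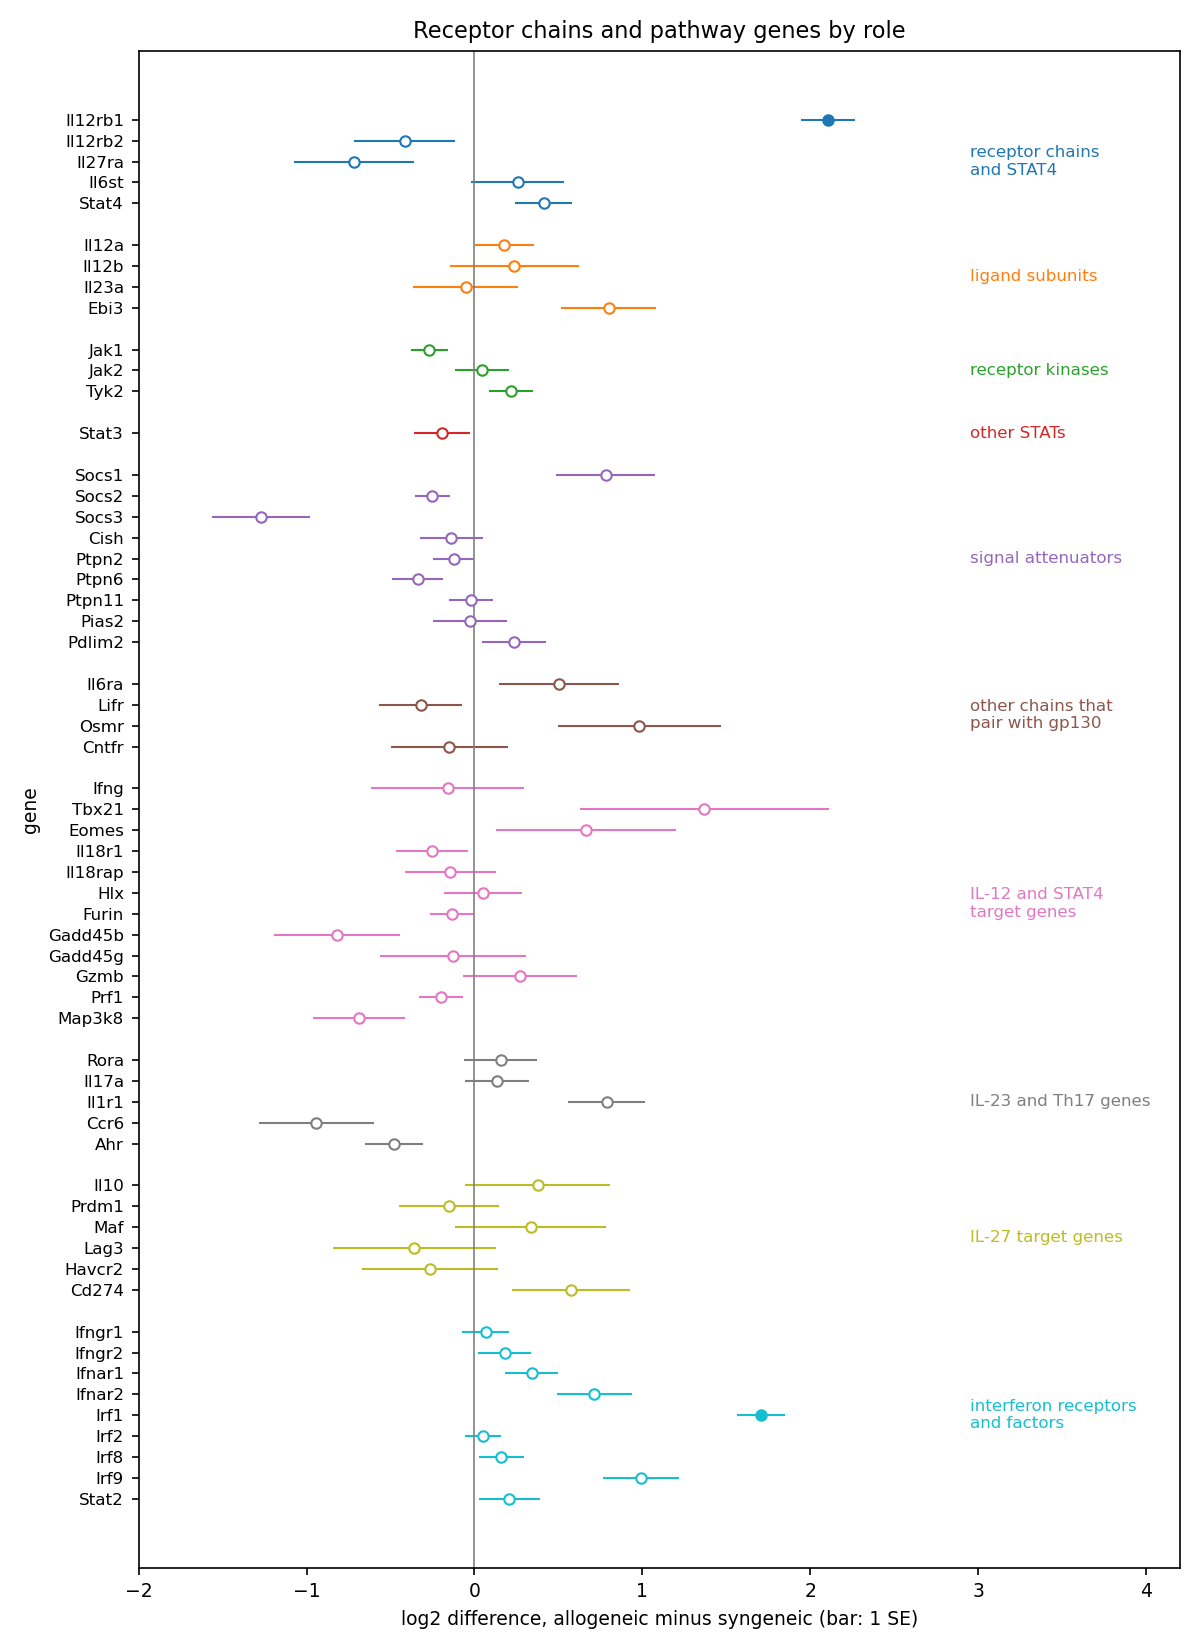
Log2 difference, allogeneic minus syngeneic (horizontal axis, bars 1 SE), for the 5 measured members and the pathway genes (vertical axis), coloured by role. Filled points passed limma at an adjusted p under 0.05, which only Il12rb1, chosen for that rise, and Irf1 did.

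A further 9 genes, interferon receptors and factors, were listed as possible regulators of Il12rb1. Whether any of them acts on Il12rb1 in these cells was not tested. All 9 had a positive log2 difference, with a median of 0.21, and 1 passed the test (3 unadjusted), where 0.583% of all genes passed. Over all genes 51.2% had a positive difference. The list was chosen with earlier results of these data known. Its counts and the p-values of its genes are therefore a description, and no support is drawn from them. Irf1, known to activate Il12rb1 in T cells, rose by 1.71 (SE 0.14, adjusted p = 0.000515 by limma), from a mean of 10.17 to 11.88. Irf9, the DNA-binding part of the type I interferon response complex, differed by 0.99 (SE 0.23, adjusted p = 0.0893) and Ifnar2, a chain of the type I interferon receptor, by 0.71 (SE 0.22, adjusted p = 0.168). Both are named because their calls changed with the setting. Irf9 passed under 5 alternative fits, among them the fit without syngeneic animal 3 (difference 1.16, adjusted p = 0.0457 by limma). For the interferon-gamma receptor chains, the log2 difference was 0.066 for Ifngr1 (adjusted p = 0.850 by limma) and 0.18 for Ifngr2 (adjusted p = 0.597).

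Promoter sequence was read for these genes because interferon factors were the one group beside the members that held a called gene. RefSeq windows (GRCm38.p6) of 250 bases before each annotated start were matched for 4 of the 6 members, Il12rb2, Il23r, Il6st and Stat4, and for Irf1. Il12rb1 and Il27ra were not matched. Searched on both strands were TTCNNNGAA, the palindromic GAS element bound by STAT dimers, and GAAA followed by any 2 bases and GAAA again, the core of the element bound by interferon regulatory factors. GAS letters occur in 7.02% and the other letters in 2.98% of 32851 such windows. Matches in the windows of these genes are shown with the matched letters in capitals, for Irf1 (chr11:53769879-53769977, plus strand), Il12rb2 (chr6:67376258-67376356, minus strand) and the second annotated Stat4 start (chr1:52008098-52008197, plus strand), each written from 5′ to 3′ on the strand of the gene.
Irf1 GAS: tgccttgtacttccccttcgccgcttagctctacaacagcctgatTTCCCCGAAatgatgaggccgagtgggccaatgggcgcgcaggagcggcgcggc
Il12rb2 GAS: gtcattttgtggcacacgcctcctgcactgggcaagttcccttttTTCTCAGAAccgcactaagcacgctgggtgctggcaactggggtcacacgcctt
Stat4 IRF element: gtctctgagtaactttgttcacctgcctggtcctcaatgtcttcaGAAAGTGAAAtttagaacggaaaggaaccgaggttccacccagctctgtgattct
The Irf1 match began 90 bases before the start, the Il12rb2 match 123 and the Stat4 match 97. The windows of Il23r and Il6st, the first Stat4 start and the second Irf1 start held neither set of letters. A match of letters is a description of the window and not a binding site. Of the 3 genes shown, Irf1 rose, and Il12rb2 and Stat4 had the values given above and did not pass.

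The 10 measured genes nearest to Il12rb1 in annotation order, 5 on each side, were set beside it. By limma 0 passed the test (2 unadjusted), and their log2 differences ran from -0.70 for Slc5a5, the iodide transporter, to 0.46 for Ccdc124, with a median of -0.026. The next genes on either side, Mast3, a kinase, and Arrdc2, an arrestin-domain protein, differed by -0.28 and -0.32 (adjusted p = 0.469 and 0.437 by limma). Ifi30, a thiol reductase of antigen processing that is inducible by interferon-gamma and lies 4 genes away, differed by -0.0068 (adjusted p = 0.977).

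The genes whose pattern over the 10 arrays was most like that of Il12rb1 were taken from 12191 genes above the limit on at least 5 arrays, ranked by Pearson's r. They were Eif4e3 (r = 0.980), Lgals3bp (0.978), Iigp1 (0.977), Tnfsf10 (0.975), Tapbpl (0.975), Gm4951 (0.968), Ica1 (0.968) and Igtp (0.965). All 8 stood higher in the allogeneic group, so these values mostly restate the shared group difference. The log2 difference was 0.53 for Eif4e3 to 3.26 for Lgals3bp among the 6 genes above the limit on all 10 arrays. Iigp1 exceeded the limit on 1 of 5 syngeneic arrays and Gm4951 on 0, and Gm4951 was at least 37.2-fold higher. Both genes entered the ranking only through the allogeneic group. After each group's mean was subtracted, r with Il12rb1 fell to between 0.19 for Tapbpl and 0.67 for Eif4e3, which ranked 296 of the 12191 on that measure. Irf1 ranked 13 over the 10 arrays (r = 0.962) and had r = 0.11 within groups. Stat4 had r = 0.744 over the arrays and 0.63 within groups, Il6st 0.280 and -0.054, and Il27ra -0.500 and 0.23. Socs3, noticed after its values were seen, had r = -0.704 over the arrays but 0.89 within groups, where it ranked 7. All points share their array and its normalization, and no test was made on these values.

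**Figure D4:**
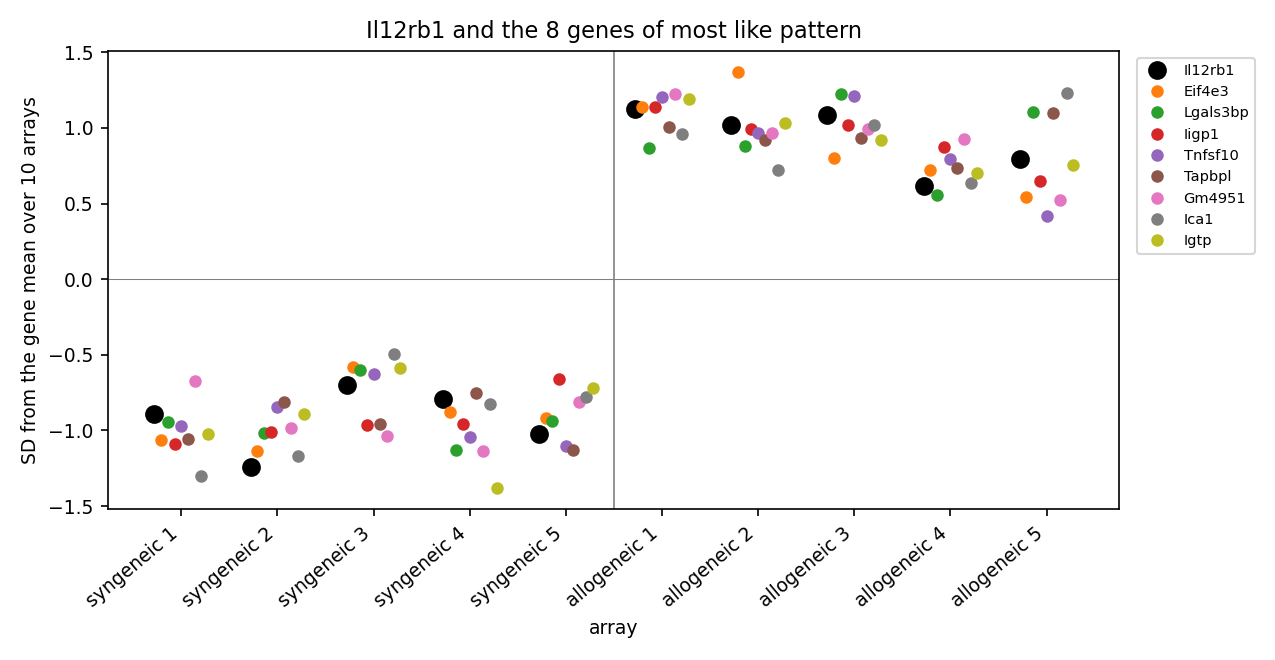
Deviation from each gene's own mean over the 10 arrays, in SD (vertical axis), on each array (horizontal axis) for Il12rb1 (black) and the 8 genes ranked most like it. All 9 genes are below 0 in every syngeneic animal and above 0 in every allogeneic animal, and within each group they take different orders.

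Il12rb1 and Stat4 are also expressed by T cells, NK cells and myeloid cells, so markers of cells that the sort could hold were measured beside them. The log2 of the summed linear intensities of the 10 measured T cell markers was 9.27 to 9.55 in syngeneic and 8.87 to 9.51 in allogeneic animals. Sums of the other marker lists were taken in the same way, so the brightest genes weigh most. Zap70, Lat and Cd247 led the 4 T cell markers that exceeded the limit on all 10 arrays. Cd8a was the other, with means of 5.53 and 5.73 (adjusted p = 0.361 by limma). The CD3 chain genes Cd3e and Cd3g exceeded the limit on 1 and 0 syngeneic and on 3 and 2 allogeneic arrays, and Cd3d on 5 and 3. Cd4 exceeded the limit on 1 array in each group and Cd8b1 on 0 arrays. The T cell list's median difference was -0.10, with 5 of 10 positive. The 9 measured NK cell markers summed to 10.01 to 10.57 and 10.30 to 11.03. Of these, Gzma, Klrd1 and Prf1 exceeded the limit on all 10 arrays, and Ncr1, Klrk1, Klra8, Gzmb and Eomes on 0. Gzma, a granzyme gene, had means of 8.86 and 9.92 and a log2 difference of 1.06 (SE 0.25, adjusted p = 0.0995 by limma). The list's median difference was 0.27, with 6 of 9 positive. Their part in the Il12rb1 difference was not tested.

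The 10 macrophage and monocyte markers summed to 11.92 to 12.49 in syngeneic and 12.45 to 13.18 in allogeneic animals, close to separate ranges. Most of the sum was 1 gene, Mpeg1, a pore-forming macrophage gene with means of 11.95 and 12.63. The next brightest, Lyz2, had means of 8.01 and 8.33. The near separation of the sums is therefore mostly that of Mpeg1. Of the 10 markers, 4 had a positive difference, and the median of all 10 was -0.086. Adgre1 exceeded the limit on 0 syngeneic and 3 allogeneic arrays (adjusted p = 0.323 by limma), and Fcgr1 on 2 and 4. In the other direction, C1qa exceeded the limit on 5 and 3 arrays and C1qb on 5 and 4. Csf1r was above the limit on all 10 arrays and differed by -0.11 (adjusted p = 0.816 by limma). Lyz2 and Cd68 were the next brightest of the 5 above the limit on all arrays, and Cd14 was above it on 0. The 8 measured dendritic cell markers summed to 9.25 to 10.11 and 9.62 to 10.45, led by Ccr7, Zbtb46 and Flt3. Their median difference was 0.48, with 6 of 8 positive (3 unadjusted). Zbtb46 differed by 0.58 (SE 0.15, adjusted p = 0.126 by limma), while Itgax, Batf3 and Cd209a were above the limit on 0 arrays. The 7 measured granulocyte markers, led by S100a8, S100a9 and Camp, summed to 10.89 to 12.21 and 10.31 to 12.89. The granulocyte median difference was 0.17, with 6 of 7 positive. By limma, 0 of the 53 measured markers of all lists passed the test (9 unadjusted). The part of myeloid cells in the Il12rb1 difference was not tested. Il12rb1 was highest in allogeneic animal 1 on the normalized scale (animal 3 was highest on the deposited scale). In animal 1 the granulocyte sum was the lowest of all 10 animals (10.31) and the macrophage and monocyte sum the highest (13.18). The latter was nearly all Mpeg1, whose highest allogeneic value was 13.14, so it does not describe the other macrophage markers.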

How the data were processed

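Values were read from 1 deposited table of linear intensity, with a value for each probe set on each array, from 0.74 to 22385. How the authors summarised and scaled the deposited intensity is not given in the sources used. Per the labels' protocols, total RNA was turned into biotinylated cDNA with NuGEN kits. Log2 values were quantile normalized between arrays. Probe sets were named from the platform annotation (34945 with 1 symbol, 932 with several, 9160 with none, 64 controls). For 34754 of them the symbol was taken by gene identifier from the GRCm38.p6 annotation, whether or not it changed. Each gene was read from its brightest probe set by mean over all arrays. Groups were compared with limma 3.58.1 in R 4.3.3 (lmFit and eBayes), with Benjamini-Hochberg adjustment over 18193 genes, where 92 were higher and 14 lower in the allogeneic group at an adjusted p under 0.05, or over 45037 probe sets (185 passed). Code for the fit was tested on simulated data. The background limit of an array was the 95th percentile of 27 bacterial probe sets other than the hybridisation spikes. Where 1 group was at or below it on all arrays and the other above it on all, the fold is a lower bound. Each array of the low group then entered at its own value or its limit, whichever was higher. Levels of different probe sets were not compared. Named genes were all members, called list genes or otherwise up to 2 per list with the smallest p, the 8 genes most like Il12rb1, and from each marker list up to 3 of the brightest above the limit on all arrays with those above it on 0 arrays. Exceptions are stated. The members and lists were chosen with earlier results of these data known. Alternatives covered normalization, probe set choice, filters, fit settings, the limit and left-out animals. The number of arrays limits precision.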

Additional observations from a re-analysis of the deposited data

How the results depend on the processing

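The differences of Il12rb1, Il12rb2, Il27ra, Il6st and Stat4 kept their direction under all 19 alternatives (18 for Il12rb2, which the filter on 5 arrays removes), and the last 4 passed the test under none. Over the left-out animals they ran from 2.02 to 2.19 for Il12rb1, -0.61 to -0.25 for Il12rb2, -0.90 to -0.47 for Il27ra, 0.11 to 0.42 for Il6st and 0.34 to 0.52 for Stat4. Without quantile normalization Il12rb2 differed by -0.18, and Il6st probe set 1460295_s_at turned from -0.017 to 0.18, both far from passing. A limit at the median plus 3 scaled MAD of the bacterial probe sets lay above the highest of them on every array (6.03 to 8.30). Il12rb2 and Il6st exceeded it on 0 arrays, Il27ra on 4, and Il12rb1 and Stat4 on all 10. The IL-12, IL-27 and IL-35 pairs were then each on 0 arrays, and the IL-23 pair could not be counted.

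The 106 called genes became 307 among genes above the limit on at least 5 arrays, 237 without the lowest 25%, 307 with trend and robust eBayes, 720 with array weights, 251 with 16 added before log2 and 658 without allogeneic animals 1, 3 and 4. Over single left-out animals they ran from 55 to 636: 57 without syngeneic animal 1, 55 without syngeneic 2, 56 without syngeneic 5, 69 without allogeneic 4 and 636 without allogeneic 1. The cause was not tested.

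Socs3 was the 1 attenuator called with the mean of all probe sets, genes above the limit on at least 5 arrays, trend and robust eBayes, array weights, and 16 added. Calls in the interferon list were 2 (Irf1 with Irf9) with that filter, with trend and robust eBayes, with 16 added and without syngeneic animal 3, 2 (Irf1 with Ifnar2) without allogeneic animals 1, 3 and 4, and 3 with array weights. Over left-out animals they ran from 1 to 2, and those of the IL-12 target list from 0 to 1.

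Animal numbers are shared between the groups only as numbers: deviations of same-numbered animals correlated between -0.17 and 0.27. With the number as a replicate block 14 genes were called, and 0 of the interferon list, where Irf1 differed by 1.71 (adjusted p = 0.0619 by limma).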
